A study of Mus musculus with 6 samples.

Results

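DNA damage checkpoint and repair genes encode the proteins that sense breaks and stalled replication forks, delay the cell cycle and restore the DNA. Here 30 such genes were taken from a list of symbols that names checkpoint kinases, checkpoint sensors and mediators, homologous recombination, the Fanconi anaemia pathway, post-replication repair and mismatch repair. Of these, 28 had a probe set that named exactly 1 gene symbol, among 22180 genes measured in this way. Fanca, whose probe set also names Zfp276, and Xrcc2 are not analysed here. They were described in bone marrow-derived macrophages of C57Bl/6 mice in 3 groups with 2 Affymetrix arrays each. All cells were first grown for 5 days in 20 ng/ml M-CSF, the growth factor that drives macrophage differentiation. The M-CSF group then stayed in M-CSF, at 50 ng/ml, for 6 more days. The FSL-1 group received 20 ng/ml FSL-1 for the same time, a synthetic lipopeptide that activates Toll-like receptor 2, and the series design calls these cultures multinucleated giant cells. The third group received 20 ng/ml FSL-1 together with 10 µM nutlin-3a, a small molecule that blocks the binding of Mdm2 to p53 and was used here to raise active p53. The labels do not say whether M-CSF was present during FSL-1 treatment, whether replicates came from separate cultures or animals, or which gate was used for the sorted cells.

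As background, the kinases Atr and Atm are recruited to single-stranded DNA at stalled forks and to broken DNA ends, and pass the signal to Chek1 and Chek2, which hold back the cyclin-dependent kinases. Homologous recombination repairs a break from the sister chromatid and is therefore used in S and G2 phase, and many of its genes are transcribed most in cycling cells. Macrophages proliferate in M-CSF, and multinucleated giant cells carry several nuclei in 1 cytoplasm.

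Values are log2 expression levels, so a difference of 1 is a doubling. The 28 genes spanned group means from 4.88 for Brca2 with nutlin-3a to 10.08 for Rad9a in M-CSF. Each had a brightest group mean above 5.51, the median of all genes. Duplicate arrays correlated at 0.9929 to 0.9951 over all genes. The median standard deviation between duplicates was 0.0864 over the 28 genes in M-CSF, 0.0859 with FSL-1 and 0.1 with FSL-1 and nutlin-3a, and the widest pair was Fancd2 with nutlin-3a at 0.48. The 10 macrophage markers had a mean level of 11.07 to 11.46 on the 6 arrays, against 4.66 to 5.13 for 8 neutrophil markers and 4.97 to 5.22 for 8 fibroblast markers. Of the fibroblast list, Col1a1 was at 6.46 to 7.43 and Col1a2 at 5.47 to 6.54. Col1a2 differed by -0.8 with nutlin-3a against FSL-1 (limma adjusted p = 0.0292), which did not pass on averaging its probe sets. Pdgfrb differed by 0.57 with nutlin-3a against M-CSF (adjusted p = 0.0329), which did not pass with the replicate block. The lymphocyte marker Cd4 was at 9.51 to 10.75, whereas the 7 measured markers of that list averaged 4.86 to 5.22. Of the neutrophil list, Mmp8 was at 5.86 to 8.55 and rose by 2.51 with FSL-1 (limma adjusted p = 4.77e-05), and Cxcr2 rose by 0.60 (adjusted p = 0.0467, passing under 5 of 13 alternatives), with a level of 4.62 to 5.45. The megakaryocyte marker Pf4 was at 8.25 to 9.12. It rose by 0.71 with FSL-1 (limma adjusted p = 0.0121) and differed by -0.86 with nutlin-3a against FSL-1 (adjusted p = 0.00613). The 4 measured markers of its list averaged 5.89 to 6.17, and 3 of them were not called in these comparisons. Mmp8 differed by -0.62 with nutlin-3a against FSL-1 (adjusted p = 0.0339). With FSL-1, Cd4 differed by -1.01 (adjusted p = 0.00636) and the dendritic cell marker Ccr7 by 0.65 (adjusted p = 0.0208). The 6 measured dendritic cell markers averaged 4.79 to 5.01. With FSL-1, 5 of them were not called, and 4 of the 6 differences were negative. With nutlin-3a against FSL-1, Cd4 differed by 0.64 (limma adjusted p = 0.0405), which did not pass with centred arrays or the replicate block. The part of these in the results was not tested. With bulk RNA, fewer cells expressing a gene and less RNA per cell cannot be told apart.

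Part of the set was lower with nutlin-3a. With FSL-1 against M-CSF 0 of the 28 genes passed the test. There 2.95% of all genes were called lower and 3.91% higher, so that 0 is near those shares. In that comparison 23 of the 28 differences were negative, where all genes gave 11449 of 22180. Of the 7 calls with nutlin-3a against FSL-1, 5 were among the 9 homologous recombination genes. The roles were assigned with earlier results of these data known, so this count is no separate support. Genes were called at an adjusted p under 0.05 from limma with Benjamini-Hochberg adjustment over all 22180 genes. With nutlin-3a against FSL-1 alone, 7 of 28 fell and 0 rose, where 4.12% of all genes were called lower and 2.38% higher. The median difference of the 28 genes was -0.42, against 0.02 for all genes. Both nutlin-3a arrays lay below both FSL-1 arrays for 17 of the 28 genes and above them for 3, where all genes gave 23.7% and 27.2%. At an unadjusted p under 0.05 the count was 18, where all genes gave 21.2%. With an intensity trend and a robust prior 15 were called lower, where all genes gave 7.07%. Restricting the test to brighter genes, those with a highest group mean above 5.51, called 17, where those genes gave 13.6%. Genes such as Chek1, Bard1, Rad51ap1 and Fanci were below 5.51 with nutlin-3a and passed that filter only through the other groups. The 17 is therefore no separate support.

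The comparison with M-CSF was wider. In it, 14 of 28 genes were lower with FSL-1 and nutlin-3a and 0 were higher, where 4.94% of all genes were called lower and 4.58% higher. The median difference was -0.43, against 0.02 for all genes. For 21 genes both nutlin-3a arrays lay below both M-CSF arrays and for 1 gene, Chek2, above them, where all genes gave 24.2% and 27.3%. At an unadjusted p under 0.05 the count was 17, where all genes gave 23.9%. This comparison shares its nutlin-3a arrays with the previous one, so the counts are not independent.

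FSL-1 against M-CSF gave 0 calls among the 28 genes with limma, where 2.95% of all genes were called lower and 3.91% higher. At an unadjusted p under 0.05 the count was 8, where all genes gave 21.2%. Differences ran from -0.52 for Rad54l to 0.44 for Rad17, with a median of -0.18 against -0.01 for all genes. The FSL-1 arrays lay below both M-CSF arrays for 17 genes and above them for 3, against 25.6% and 24.6% of all genes. The smallest adjusted p was 0.076, for Rad17. Estimating the variance with an intensity trend and a robust prior called 2 genes (Rad17 higher and Rad54l lower), where all genes gave 6.65% higher and 5.72% lower. Restricting the test to brighter genes called 3, those 2 and Palb2, where the brighter genes gave 12.3% higher and 10.9% lower.

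**Figure D1:**
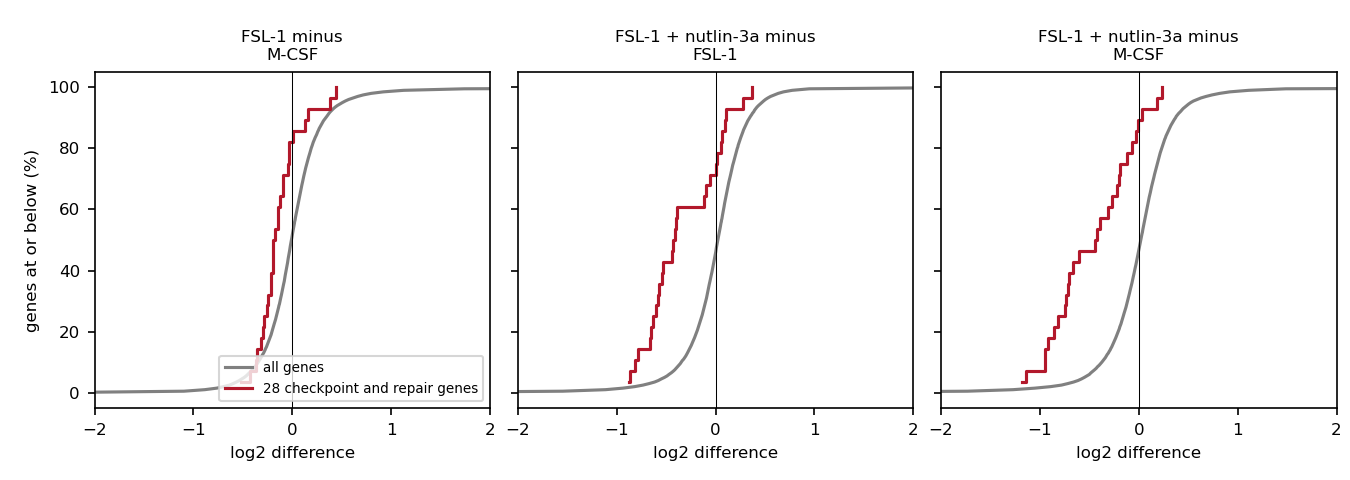
Cumulative share of genes (vertical axis, in percent) at or below each log2 difference (horizontal axis) in the 3 comparisons, with all 22180 genes in grey and the 28 checkpoint and repair genes in red. The red curve lies to the left of the grey curve over most of its course in both nutlin-3a comparisons, with medians of -0.42 and -0.43.

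How many genes passed depended on single arrays, since each group had 2. The count of 7 with nutlin-3a against FSL-1 dropped to 1 when FSL-1 replicate 1 was omitted, to 0 when FSL-1 replicate 2 was, and to 3 and 1 when nutlin-3a replicates 1 and 2 were, and it was 6 without either M-CSF array. The count of 14 against M-CSF became 8 and 7 without M-CSF replicates 1 and 2, 8 and 6 without nutlin-3a replicates 1 and 2, and 12 without either FSL-1 array.

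**Figure D2:**
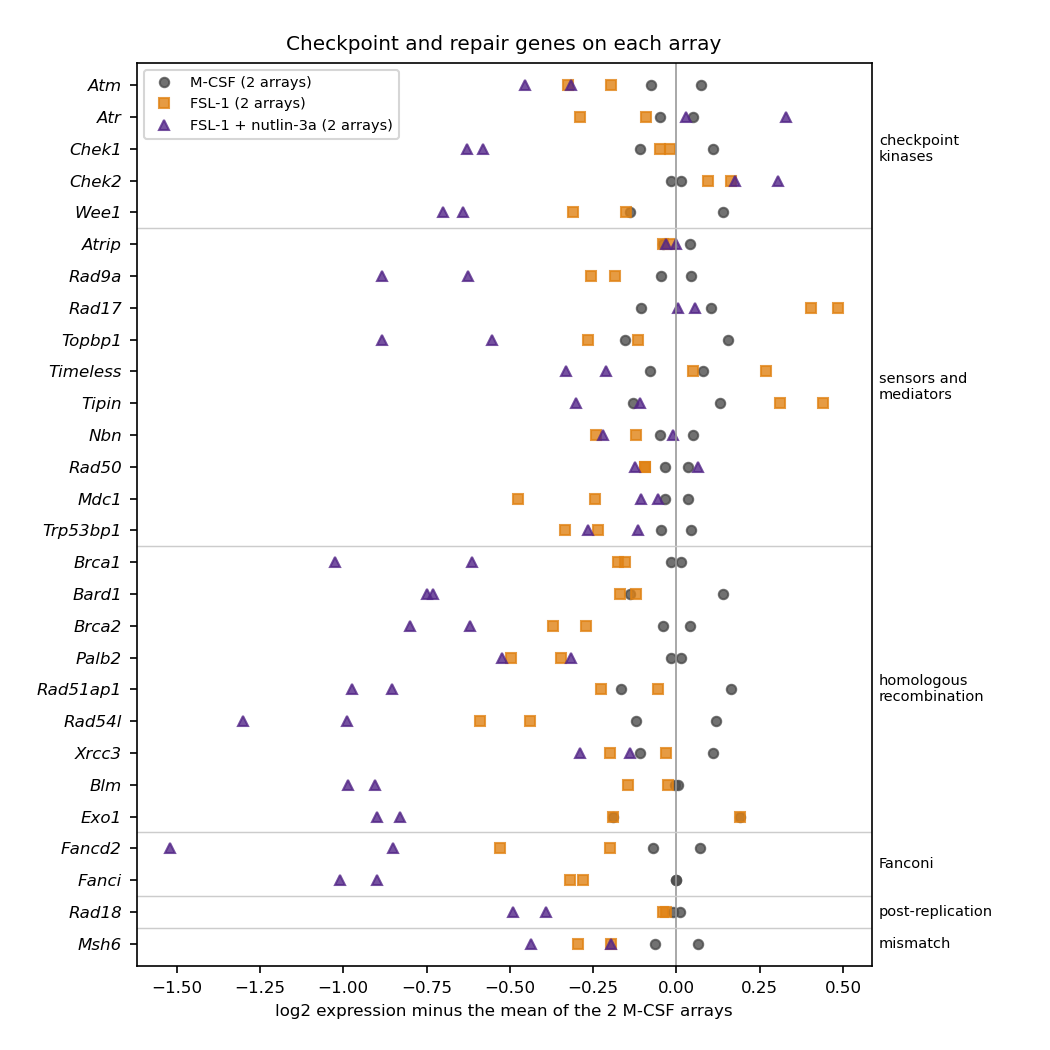
Log2 expression of each of the 28 genes on each of the 6 arrays, minus the mean of the 2 M-CSF arrays (horizontal axis), grouped by role. The nutlin-3a pairs of Fancd2, Rad54l, Blm and Fanci have the lowest means, and those of Chek2 and Atr lie to the right of the M-CSF mean.

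Of the 5 checkpoint kinases, 1 fell with nutlin-3a against FSL-1 and 2 against M-CSF, where 4.12% and 4.94% of all genes were called lower. Chek1, the effector kinase downstream of Atr, was at 5.73 and 5.95 in M-CSF, 5.79 and 5.82 with FSL-1, and 5.26 and 5.21 with nutlin-3a. The M-CSF and FSL-1 values overlapped, and both nutlin-3a values lay below all others. The nutlin-3a level was 1.48-fold lower than with FSL-1 (log2 difference -0.57, SE 0.122, limma adjusted p = 0.0355) and 1.52-fold lower than in M-CSF (-0.60, adjusted p = 0.0206). The call against FSL-1 ended on omission of any array of its 4 and with either form of the replicate block, with adjusted p from 0.00892 to 0.179 over the alternatives. The call against M-CSF was lost without M-CSF replicate 2 or either nutlin-3a array (0.00483 to 0.0968).

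Wee1, which blocks entry into mitosis by phosphorylating Cdk1, stood at 7.64 and 7.92 in M-CSF, 7.47 and 7.63 with FSL-1, and 7.08 and 7.14 with nutlin-3a. The 3 groups stepped down without overlap. The step to nutlin-3a passed against M-CSF (1.58-fold lower, -0.66, SE 0.136, limma adjusted p = 0.0209) but not against FSL-1 (-0.44, adjusted p = 0.108). Without M-CSF replicate 2 or either nutlin-3a array the first of these calls was also lost, with an adjusted p of up to 0.0996.

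Atm, Atr and Chek2 were not called in any of the 3 comparisons. Chek2, the effector downstream of Atm, was highest with nutlin-3a, at 8.64 and 8.77 against 8.63 and 8.56 with FSL-1 and 8.48 and 8.45 in M-CSF. Its groups did not overlap, but the difference from M-CSF was 0.24 with a 95% interval of -0.03 to 0.50. Atr was at 6.66 and 6.36 with nutlin-3a, above the FSL-1 arrays at 6.04 and 6.24 and overlapping the M-CSF arrays at 6.28 and 6.38. The difference from FSL-1 was 0.37 (SE 0.143, limma adjusted p = 0.187). A second, dimmer Atr probe set gave 0.10 for that difference, and -0.09 in place of 0.18 against M-CSF. Atm, the kinase that responds to broken ends, differed by -0.39 between nutlin-3a and M-CSF, with a limma adjusted p of 0.0994.

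Among the 10 sensors and mediators, 0 were called with nutlin-3a against FSL-1 and 2 fell against M-CSF. Of all genes, 4.12% and 4.94% were called lower. Against FSL-1, 5 had an unadjusted p under 0.05, where all genes gave 21.2%. The count of 0 became 4 with an intensity trend and a robust prior (Rad9a, Rad17, Topbp1 and Tipin), where all genes gave 7.07% lower. With the test restricted to brighter genes it became 5, adding Timeless, where those genes gave 13.6% lower. Timeless had a mean of 5.42 with nutlin-3a, below 5.51, and passed that filter only through the other groups. Its call there is therefore no separate support. Rad9a is a subunit of the ring-shaped clamp that marks damaged DNA for Atr signalling. It was at 10.13 and 10.04 in M-CSF, 9.83 and 9.90 with FSL-1, and 9.20 and 9.46 with nutlin-3a. The groups did not overlap, and the fall from M-CSF to nutlin-3a was 1.68-fold (-0.75, SE 0.13, limma adjusted p = 0.0101). That call was lost without M-CSF replicate 1 or nutlin-3a replicate 1, with an adjusted p of up to 0.0647. Against FSL-1 the difference of -0.54 had an adjusted p of 0.0524, which the same settings brought to 0.00402 and 0.015.

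Topbp1, which activates Atr at that clamp, was at 8.81 and 9.12 in M-CSF, 8.70 and 8.85 with FSL-1, and 8.41 and 8.08 with nutlin-3a. The M-CSF and FSL-1 arrays overlapped and the nutlin-3a arrays lay below both. Topbp1 fell 1.64-fold against M-CSF (-0.72, SE 0.162, limma adjusted p = 0.0302). The call was lost without M-CSF replicate 2, nutlin-3a replicate 2 or either FSL-1 array and in the fit on the compared groups alone (adjusted p 0.0033 to 0.145).

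Rad17, which loads the clamp, and Tipin had their highest levels with FSL-1. Rad17 was at 8.23 and 8.31 with FSL-1, against 7.93 and 7.72 in M-CSF and 7.83 and 7.88 with nutlin-3a. The FSL-1 arrays lay above the other 4, and the M-CSF and nutlin-3a arrays overlapped. The differences were 0.44 with FSL-1 (limma adjusted p = 0.076) and -0.41 with nutlin-3a against FSL-1 (adjusted p = 0.0968). Tipin, which forms the fork protection complex with Timeless, read 6.40 and 6.53 with FSL-1, 5.96 and 6.22 in M-CSF, and 5.79 and 5.98 with nutlin-3a. Again both FSL-1 arrays were the highest. The nutlin-3a difference of -0.58 did not pass (adjusted p = 0.0501). It passed under 4 alternatives, with adjusted p of 0.0473 with each array centred on its median, 0.0491 with the replicate block, 0.0231 with the trend and robust prior and 0.0148 over brighter genes. Timeless differed by -0.43 between nutlin-3a and FSL-1 (adjusted p = 0.102).

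The other 5 genes of this class were not called in any comparison. Nbn and Rad50, subunits of the complex that binds broken ends with Mre11, differed between nutlin-3a and FSL-1 by 0.07 (95% interval -0.23 to 0.36) and 0.06 (-0.22 to 0.34). Atrip, the partner of Atr, varied from 6.84 to 6.92 over all 6 arrays, the narrowest range of the class. Mdc1, which binds phosphorylated H2AX beside a break, was lowest with FSL-1, at 6.96 and 7.19 against 7.47 and 7.40 in M-CSF and 7.33 and 7.38 with nutlin-3a. The FSL-1 arrays did not overlap the others, but the difference from M-CSF was -0.36 with an adjusted p of 0.148. Trp53bp1, which steers breaks toward end joining, differed by -0.29 between FSL-1 and M-CSF (adjusted p = 0.217).

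**Figure D3:**
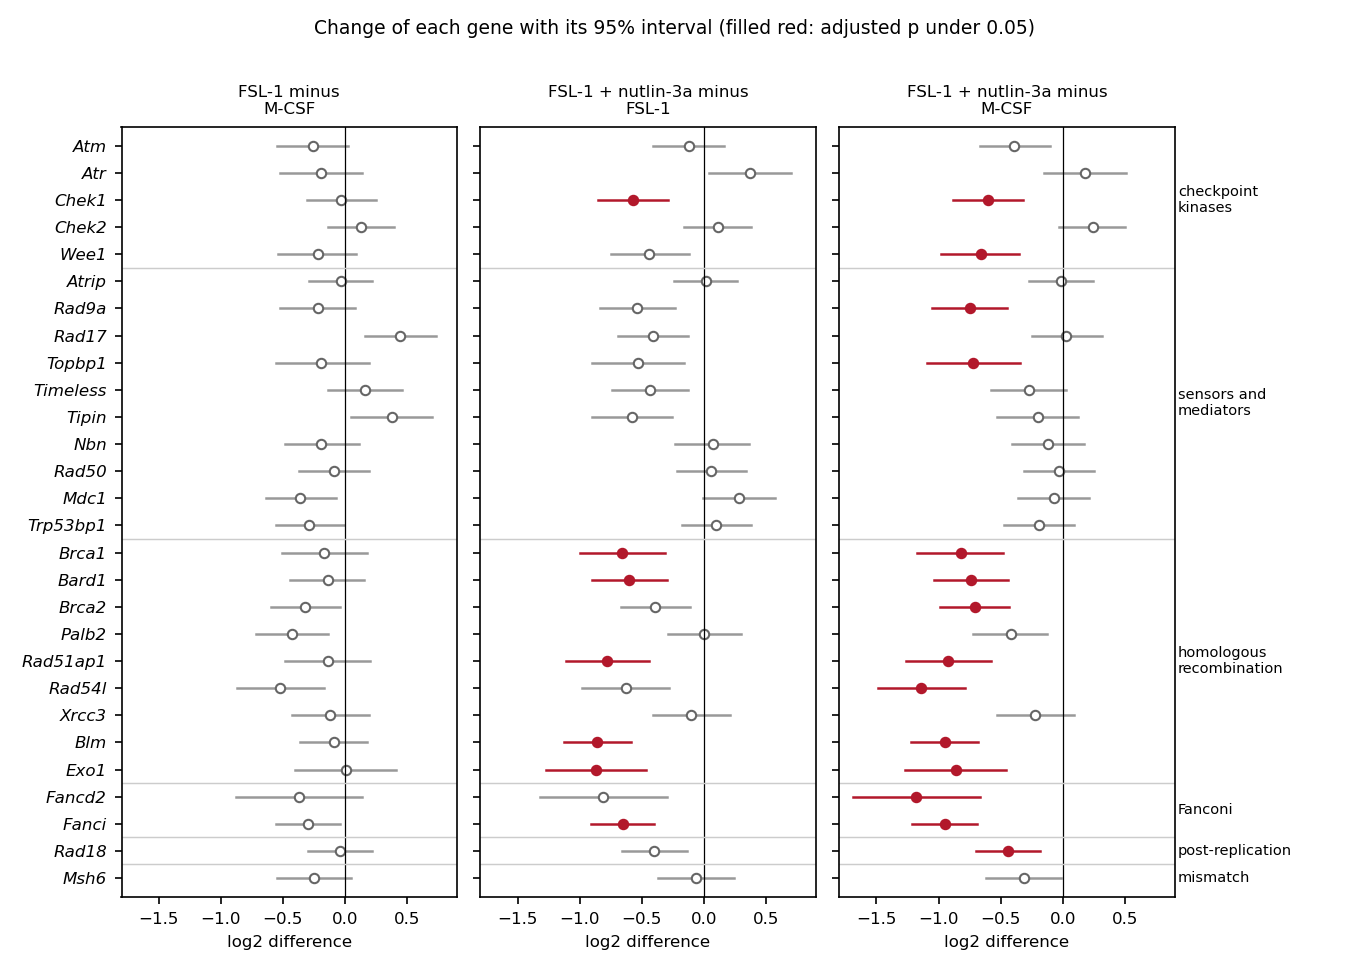
Log2 difference of each of the 28 genes in the 3 comparisons (horizontal axis), with lines for the 95% interval from limma and filled red points for an adjusted p under 0.05. Filled points number 0 with FSL-1 against M-CSF, 7 with nutlin-3a against FSL-1 and 14 with nutlin-3a against M-CSF, each to the left of 0.

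Homologous recombination held 5 of the 7 calls with nutlin-3a against FSL-1 and 7 of the 14 against M-CSF, among 9 measured genes. Of all genes, 4.12% and 4.94% were called lower. Genes were assigned to roles with earlier results of these data known, so these counts are no separate support. The class medians were -0.63 and -0.82, and those of the 2 Fanconi genes were -0.73 and -1.07. Blm, a helicase that helps to resect broken ends and to dissolve joined DNA molecules, was at 6.81 and 6.82 in M-CSF, 6.67 and 6.79 with FSL-1, and 5.83 and 5.91 with nutlin-3a. The nutlin-3a arrays lay well apart from the other 4. Blm fell 1.81-fold against FSL-1 (-0.86, SE 0.115, limma adjusted p = 0.00535) and 1.93-fold against M-CSF (-0.95, adjusted p = 0.0019). Without FSL-1 replicate 2 the first of these had an adjusted p of 0.0598, and it passed under the other 13 alternatives, the lowest being 0.000927. The second passed under all 14 alternatives (0.000281 to 0.0172).

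Exo1, the exonuclease that extends resection, had the largest fold among the 7 genes called against FSL-1, together with a wide spread between duplicates. It was at 6.23 and 6.61 in M-CSF, 6.23 and 6.61 with FSL-1, and 5.59 and 5.52 with nutlin-3a. M-CSF and FSL-1 gave the same pair of values to 2 decimals, and nutlin-3a lay below both. Exo1 fell 1.83-fold against FSL-1 (-0.87, SE 0.174, limma adjusted p = 0.0278) and 1.82-fold against M-CSF (-0.86, adjusted p = 0.0196). The call against FSL-1 ended on omission of any array of its 4 (adjusted p 0.00582 to 0.164 over the alternatives). The call against M-CSF was lost without M-CSF replicate 2 or either nutlin-3a array (0.00442 to 0.0951).

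Brca1 and Bard1 form a ubiquitin ligase that promotes recombination. Brca1 was at 6.22 and 6.25 in M-CSF, 6.08 and 6.06 with FSL-1, and 5.62 and 5.21 with nutlin-3a. Bard1 was at 6.00 and 5.72 in M-CSF, 5.69 and 5.74 with FSL-1, and 5.13 and 5.11 with nutlin-3a. In both genes the nutlin-3a arrays lay below all others, and for Bard1 the other groups overlapped. Against FSL-1, Brca1 fell 1.58-fold (-0.66, SE 0.149, limma adjusted p = 0.0426) and Bard1 1.51-fold (-0.60, SE 0.129, adjusted p = 0.0364). Against M-CSF the falls were 1.77-fold for Brca1 (adjusted p = 0.0125) and 1.67-fold for Bard1 (adjusted p = 0.0105). The Brca1 call against FSL-1 was lost under 7 of 14 alternatives (0.0123 to 0.197), among them every left-out array except nutlin-3a replicate 1. The Bard1 call ended on omission of any array of the 4 and with the replicate block (0.00955 to 0.186). The calls against M-CSF were lost for Brca1 without either M-CSF array or nutlin-3a replicate 2 (up to 0.063), and for Bard1 without M-CSF replicate 1 or either nutlin-3a array (up to 0.0617).

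Brca2, which acts in strand exchange, and Palb2, which links it to Brca1, differed in where they stepped down. Brca2 was at 5.63 and 5.55 in M-CSF, 5.32 and 5.22 with FSL-1, and 4.97 and 4.79 with nutlin-3a. Its groups stepped down without overlap, and the fall passed against M-CSF (1.63-fold, -0.71, SE 0.122, limma adjusted p = 0.00993) but not against FSL-1 (-0.39, adjusted p = 0.112). Without M-CSF replicate 1 or nutlin-3a replicate 2 it did not pass against M-CSF either (up to 0.0627). Palb2 was at 5.97 and 5.94 in M-CSF, 5.46 and 5.61 with FSL-1, and 5.43 and 5.64 with nutlin-3a. The FSL-1 and nutlin-3a arrays overlapped with a difference of 0 (95% interval -0.29 to 0.30), and both groups lay below M-CSF with differences of -0.43 and -0.42 that were not called (adjusted p = 0.093 and 0.0788).

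Rad51ap1 and Rad54l act in strand exchange, the first by promoting strand pairing and the second as a translocase on DNA. Rad51ap1 was at 5.68 and 6.01 in M-CSF, 5.62 and 5.79 with FSL-1, and 4.99 and 4.87 with nutlin-3a. Rad54l was at 6.63 and 6.87 in M-CSF, 6.16 and 6.31 with FSL-1, and 5.76 and 5.45 with nutlin-3a. The Rad51ap1 arrays of M-CSF and FSL-1 overlapped, whereas the 3 groups of Rad54l did not. Rad51ap1 fell 1.71-fold against FSL-1 (-0.78, SE 0.146, limma adjusted p = 0.0223) and 1.89-fold against M-CSF (adjusted p = 0.00691). The first call ended on omission of any array of its 4 (0.0058 to 0.148), and the second passed under all 14 alternatives, up to 0.0491. Rad54l fell 2.21-fold against M-CSF (-1.14, SE 0.152, adjusted p = 0.00293), which also passed under all 14 alternatives (0.000308 to 0.0245). Against FSL-1 its difference of -0.63 had an adjusted p of 0.051, and it passed with centred arrays (0.0456), with the trend and robust prior (0.0202) and over brighter genes (0.0157). Xrcc3, another recombination gene, ranged from 6.81 to 7.21 and was not called, with -0.10 against FSL-1 (95% interval -0.41 to 0.21).

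**Figure D4:**
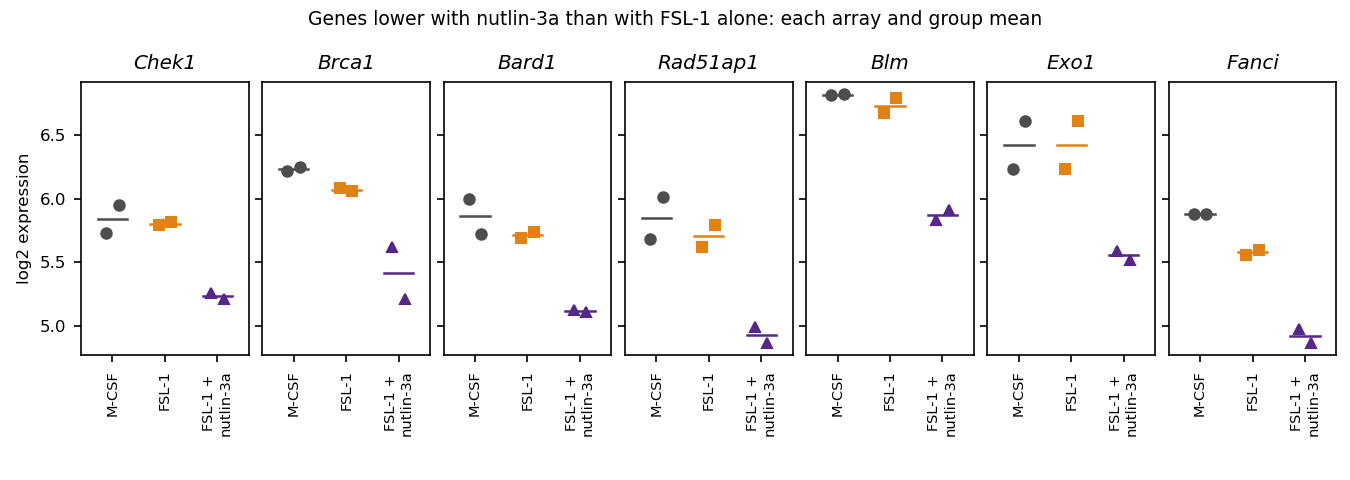
Log2 expression (vertical axis) of the 7 genes called lower with nutlin-3a against FSL-1, with points for the single arrays and bars for the group means. In each panel both nutlin-3a points lie below the 4 points of the other groups.

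Fancd2 and Fanci form the pair that is ubiquitinated when replication meets a crosslink between the DNA strands. Fanci was at 5.88 and 5.88 in M-CSF, 5.56 and 5.60 with FSL-1, and 4.98 and 4.87 with nutlin-3a. Fancd2 was at 6.64 and 6.78 in M-CSF, 6.18 and 6.51 with FSL-1, and 5.86 and 5.19 with nutlin-3a. Neither gene had overlapping groups, but the nutlin-3a arrays of Fancd2 lay far apart. Fanci fell 1.57-fold against FSL-1 (-0.65, SE 0.112, limma adjusted p = 0.0154) and 1.94-fold against M-CSF (-0.95, adjusted p = 0.00166). The first call ended on omission of any array of its 4 (0.00304 to 0.112), and the second passed under all 14 alternatives (0.00026 to 0.0159). Fancd2 fell 2.27-fold against M-CSF (-1.18, SE 0.221, adjusted p = 0.014), the largest fold of the 28 genes in any of the 3 comparisons, and that call was lost without either M-CSF array (up to 0.076). Against FSL-1 its -0.81 had an adjusted p of 0.0738, and without nutlin-3a replicate 1 it became -1.15 with an adjusted p of 0.0309. It also passed with the trend and robust prior (0.0223) and over brighter genes (0.0275).

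Rad18, the ligase that marks the replication clamp so that lesions can be bypassed, was at 7.80 and 7.78 in M-CSF, 7.75 and 7.76 with FSL-1, and 7.40 and 7.30 with nutlin-3a. The nutlin-3a arrays lay below the others. The fall against M-CSF was 1.36-fold (-0.44, SE 0.112, limma adjusted p = 0.0484), and it passed under 3 of 14 alternatives (0.0121 to 0.176) and failed without any 1 of the 6 arrays. Against FSL-1, -0.40 had an adjusted p of 0.0797. Msh6, which recognises mismatched bases, was at 6.41 and 6.28 in M-CSF, 6.05 and 6.15 with FSL-1, and 6.15 and 5.91 with nutlin-3a. The FSL-1 and nutlin-3a arrays overlapped, and the difference of -0.06 had a 95% interval of -0.37 to 0.24.

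Promoter sequences are shown for Blm, Rad51ap1 and Brca1, the genes with the largest falls against FSL-1 that have an entry in the RefSeq promoter table used (GRCm38.p6), to show the sequence at the starts of genes that fell together. Each window holds 250 bases before and 50 after the annotated start and is written 5′ to 3′ on the gene's strand. Capitals mark CCAAT boxes in either orientation (CCAAT or ATTGG) and, in Rad51ap1, the E2F core GGCGGGAA. The windows lie on the minus strand at chr7:80534949-80535248, chr6:126939538-126939837 and chr11:101551906-101552205.
Blm: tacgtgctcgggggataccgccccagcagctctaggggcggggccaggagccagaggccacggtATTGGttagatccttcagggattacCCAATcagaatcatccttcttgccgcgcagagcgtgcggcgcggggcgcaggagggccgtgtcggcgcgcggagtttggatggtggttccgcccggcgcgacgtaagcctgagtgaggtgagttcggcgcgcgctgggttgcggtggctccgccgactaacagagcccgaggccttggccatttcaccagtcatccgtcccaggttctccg
Rad51ap1: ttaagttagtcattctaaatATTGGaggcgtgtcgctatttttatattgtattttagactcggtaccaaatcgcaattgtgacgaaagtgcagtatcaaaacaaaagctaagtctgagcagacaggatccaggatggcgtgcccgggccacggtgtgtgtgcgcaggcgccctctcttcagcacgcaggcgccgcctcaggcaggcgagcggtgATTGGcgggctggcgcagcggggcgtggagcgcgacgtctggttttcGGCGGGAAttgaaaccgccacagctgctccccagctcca
Brca1: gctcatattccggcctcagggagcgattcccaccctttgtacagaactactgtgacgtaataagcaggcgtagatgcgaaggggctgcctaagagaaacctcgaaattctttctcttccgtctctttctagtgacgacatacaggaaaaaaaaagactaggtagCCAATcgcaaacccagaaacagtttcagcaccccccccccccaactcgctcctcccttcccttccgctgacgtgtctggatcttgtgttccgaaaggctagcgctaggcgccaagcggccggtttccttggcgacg
Blm holds 2 CCAAT boxes, Rad51ap1 holds 2 and the E2F core, and Brca1 holds 1 CCAAT box.

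The table has a window for 21 of the 28 genes. Any of the E2F sites TTTCGCGC, TTTGGCGC, TTTCCCGC or TTTGCCGC, searched on both strands, occurred for 6 of 21 genes (28.6%), namely Bard1, Brca2, Topbp1, Chek2, Mdc1 and Msh6, and in 2.26% of all 32851 windows. The E2F core GGCGGGAA, which was added after the promoters were read, occurred for 4 of 21 genes (19.0%) and in 2.19% of all windows. Since these windows had been seen when it was chosen, the 2 shares are no independent comparison. In Mdc1 and Msh6 it overlaps the site TTTCCCGC. Cell cycle homology region elements, TTTGAA or TTCGAA, occurred for 2 of 21 genes (9.52%) against 19.2% of all windows, and CCAAT for 11 (52.4%) against 37.4%. Of the 6 genes with a window that were called against FSL-1, 1 had any of the 4 E2F sites listed first and 2 had GGCGGGAA. Of the 15 not called, 5 and 2 had them. A match gives only the letters in the window. The windows were not matched on base composition.

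The wider damage response was described with 111 further genes in 8 lists, of which 98 were measured. With nutlin-3a against FSL-1, 13 of 98 fell and 0 rose, where 4.12% of all genes were called lower and 2.38% higher, with a median of -0.14. Against M-CSF 21 fell and 0 rose, where all genes gave 4.94% and 4.58%, with a median of -0.20. Quantile normalization once more made that 24 lower and 4 higher. With an intensity trend and a robust prior it was 27 and 5, where all genes gave 8.07% and 6.98%. Over brighter genes it was 31 and 5, where those genes gave 15.5% and 13.1%. Against FSL-1 the trend and robust prior gave 17 lower and 2 higher, where all genes gave 7.07% and 4.91%. With FSL-1 against M-CSF 7 fell and 3 rose, where all genes gave 2.95% and 3.91%, so that the share that rose was near that of all genes. The median was -0.13. The 28 genes above had medians of -0.42, -0.43 and -0.18 in the same order. Leaving out 1 array gave 4 to 11 calls for the first count, 12 to 16 for the second and 0 to 9 for the third. The lowest were without FSL-1 replicate 2 for the first, without nutlin-3a replicate 2 for the second and without either FSL-1 array for the third.

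Of 14 further checkpoint genes, 4 fell with nutlin-3a against FSL-1, where 4.12% of all genes were called lower. Cdc25c, the phosphatase that Chek1 and Chek2 inhibit, was at 6.34 and 6.57 in M-CSF, 5.69 and 5.96 with FSL-1, and 4.19 and 4.09 with nutlin-3a. Its groups did not overlap, and it fell by 1.68 on the log2 scale against FSL-1 (SE 0.142, limma adjusted p = 0.000825). Clspn, the adaptor between Atr and Chek1, fell by 0.82 (adjusted p = 0.0267), Mapkapk2 by 0.81 (adjusted p = 0.00615) and Cdc25b by 0.68 (adjusted p = 0.0358). H2ax, the histone that is phosphorylated beside breaks, fell by 0.84 with FSL-1 (adjusted p = 0.0167) and by 1.42 with nutlin-3a against M-CSF (adjusted p = 0.000945). The Cdc25c call against FSL-1 passed under all 14 alternatives, and those of Clspn, Mapkapk2 and Cdc25b under 11, 12 and 9. The H2ax calls passed under 10 and 14. Cdc25b and Cdc25c also fell with FSL-1, by 0.71 and 0.63 (adjusted p = 0.0291 and 0.0391, passing under 9 and 5).

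Of 18 further recombination genes, 4 fell with nutlin-3a against FSL-1, where 4.12% of all genes were called lower. Gen1, which cuts joined DNA molecules apart, fell by 1.18 (limma adjusted p = 0.00438). Sfr1 fell by 0.95 (adjusted p = 0.00388), the helicase Brip1 by 0.84 (adjusted p = 0.0131) and Rad51b by 0.50 (adjusted p = 0.0448). The calls of Gen1 and Sfr1 passed under all 14 alternatives, that of Brip1 under 11 and that of Rad51b under 4. Of 14 further Fanconi genes, 2 fell: Usp1, which removes ubiquitin from Fancd2 and Fanci, by 1.29 (adjusted p = 0.00197, passing under all 14) and Fancf by 0.58 (adjusted p = 0.0387, passing under 5). Usp1 was at 8.50 and 8.81 in M-CSF, 8.63 and 8.68 with FSL-1, and 7.38 and 7.35 with nutlin-3a, so that M-CSF and FSL-1 overlapped and nutlin-3a lay below both. With FSL-1 against M-CSF, Fancm fell by 0.65 (adjusted p = 0.0154, passing under 11) and Fance by 0.60 (adjusted p = 0.0251, passing under 10).

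The remaining lists held few calls with nutlin-3a against FSL-1, where 4.12% of all genes were called lower and 2.38% higher. The glycosylase Neil3 fell by 1.08 among 15 base excision repair genes (limma adjusted p = 0.00881, passing under 12 of 14 alternatives). Nhej1 fell by 0.63 among 10 end joining genes (adjusted p = 0.0343, passing under 8). Polh, a polymerase that copies past lesions, fell by 0.66 among 10 translesion genes (adjusted p = 0.0322, passing under 8). In nucleotide excision repair 0 of 13 genes and in mismatch repair 0 of 4 were called with limma. At an unadjusted p under 0.05 the counts were 3 and 0, where all genes gave 21.2%. The medians were 0.23 and 0.13. With FSL-1 against M-CSF, Polq of end joining fell by 0.63 and Mbd4 of base excision repair by 0.67 (adjusted p = 0.0265 and 0.0271, passing under 10 and 11). The 3 genes that rose in that comparison were Zswim7 of recombination by 0.63, Ercc6 of nucleotide excision repair by 0.69 and Ube2a, the partner of Rad18, by 0.50 (adjusted p = 0.0171, 0.0225 and 0.0354, passing under 10, 11 and 4).

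**Figure D5:**
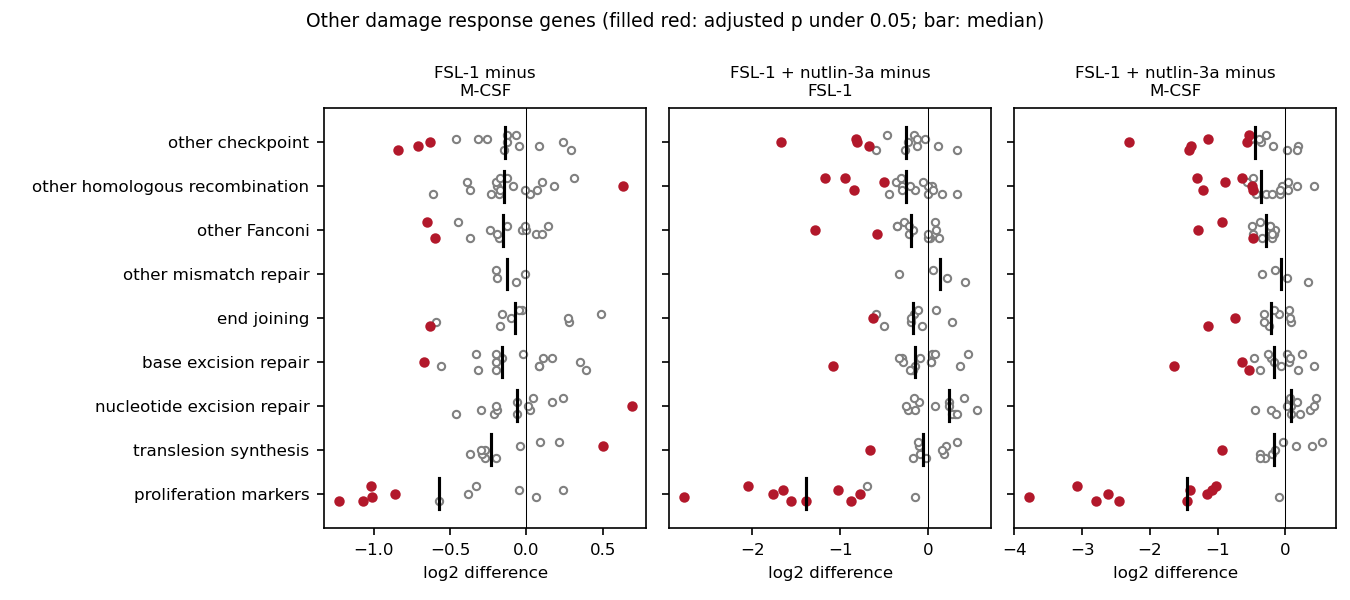
Log2 difference (horizontal axis) of 98 further damage response genes by list, and of 11 proliferation markers, in the 3 comparisons. Each point is a gene, filled red at an adjusted p under 0.05, and black bars mark medians. Proliferation markers have medians of -0.57, -1.39 and -1.45.

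Markers of proliferation were also lower with nutlin-3a. Of 11 measured, 9 fell with nutlin-3a against FSL-1, 10 with nutlin-3a against M-CSF and 5 with FSL-1 against M-CSF, where 4.12%, 4.94% and 2.95% of all genes were called lower. On omission of 1 array the 9 became 6 and 5 (FSL-1 replicates 1 and 2) or 6 and 7 (nutlin-3a replicates 1 and 2), the 10 stayed between 8 and 10, and the 5 became 1 and 2 (M-CSF replicates 1 and 2) or 0 and 2 (FSL-1 replicates 1 and 2). With FSL-1 against M-CSF the median of the markers was -0.57, where the 28 genes had -0.18 and 0 calls. The mean level of the markers was 8.37 and 8.65 in M-CSF, 7.88 and 8 with FSL-1, and 6.67 and 6.54 with nutlin-3a. The 9 recombination genes had the same order, at 6.24 and 6.33, 6.01 and 6.13, and 5.59 and 5.48. The 10 sensors and mediators were at 7.6 and 7.6, 7.5 and 7.61, and 7.37 and 7.35, so M-CSF and FSL-1 overlapped. Plk1, a mitotic kinase, fell by 1.77 with nutlin-3a against FSL-1 (limma adjusted p = 0.000307), and Ccna2, cyclin A2, fell by 2.78 (adjusted p = 0.000667). The part of proliferation in the levels of the 28 genes was not tested. Of 6 p53 feedback targets, 4 rose with nutlin-3a against FSL-1, where 2.38% of all genes were called higher, led by Phlda3 at 1.28 (adjusted p = 0.0012) and Mdm2 at 0.77 (adjusted p = 0.0113). The 4 became 1 on omission of any of the 4 compared arrays and 3 without either M-CSF array. The Phlda3 call passed under all 14 alternatives, and the Mdm2 call ended on omission of any of the 4 compared arrays (adjusted p up to 0.0901). Mdm2 also rose by 0.88 with FSL-1 (adjusted p = 0.00566), a call that ended without either FSL-1 array (up to 0.0543). Of the 10 macrophage markers, 3 fell with nutlin-3a against FSL-1 (Fcgr1 by 1.58, Cd14 by 1.12 and Mrc1 by 0.85) and 0 rose. Over all genes 4.12% were called lower and 2.38% higher. Both nutlin-3a arrays lay above both FSL-1 arrays for 4 of the 10, such as Csf1r with a difference of 0.40, and below them for 6. All genes gave 27.2% above and 23.7% below. The median of the list was -0.14. With FSL-1 against M-CSF 2 of the 10 rose (Adgre1 and Itgam) and 1 fell (Csf1r), where all genes gave 3.91% and 2.95%. With nutlin-3a against M-CSF 3 fell and 0 rose, where all genes gave 4.94% and 4.58%. The part of these differences in the result was not tested either.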

How the data were processed

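Total RNA of sorted cells was amplified and run as biotin-labelled material on Affymetrix arrays, according to the labels' protocols. The deposited log2 values, 1 for each probe set, come from RMA, for which the submitters' processing notes give Affymetrix Expression Console 1.4. RMA equalises the arrays, so a change shared by most genes would not show. Array medians were 5.05 to 5.14. Detection calls were not used here, and the number of arrays limits the precision.

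Probe sets naming exactly 1 symbol in the platform annotation were used, and for several per gene the one with the highest mean was kept, giving 22180 genes. The lmFit and eBayes functions of limma 3.58.1 (R 4.3.3) were applied to all 6 arrays at once, with 3 residual and 4.88 prior degrees of freedom. Calls used a Benjamini-Hochberg adjusted p under 0.05 over all genes, and intervals are 95% intervals of 1 gene. The spread behind each p is that between these arrays and may be technical.

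The genes, lists, roles and the motifs other than GGCGGGAA were chosen with earlier results of these data known. Every one of the 28 genes is named. Of the other lists, up to 4 called genes per comparison with the smallest p could be named, and promoters are those of the 3 genes with the largest called change against FSL-1 that have one in the table. Members of the other lists were also matched through RefSeq synonyms. Same-numbered samples deviated with correlations of -0.188, -0.0248 and 0.0175, so replicate numbers were not taken as pairs. The alternatives were centring, a second quantile normalization, an intensity trend with a robust prior, averaging a gene's probe sets, a filter on dim genes, the compared groups alone, a replicate block and leaving out each array. A block with crossed numbers was added after seeing the data. Figures were drawn with matplotlib 3.10.9.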

Additional observations from a re-analysis of the deposited data

How the results depend on the processing

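With an intensity trend and robust eBayes, and with dim genes filtered out, the called checkpoint and repair genes numbered 2 and 3 in place of 0 with FSL-1 against M-CSF, and 15 and 17 in place of 7 with nutlin-3a against FSL-1. The same settings gave 2744 and 2703 in place of 1521 calls over all genes in the first comparison, 2658 and 2626 in place of 1441 in the second, and 3337 and 3334 in place of 2110 with nutlin-3a against M-CSF. Further damage response genes numbered 16 in place of 10 with the trend and robust setting for FSL-1 against M-CSF. For nutlin-3a against M-CSF they numbered 32 (5 higher and 27 lower) and 36 (5 higher and 31 lower) with these settings, in place of 21. For nutlin-3a against FSL-1 both settings gave 2 higher and 17 lower, in place of 0 and 13. Quantile normalization once more gave 4 higher and 24 lower for nutlin-3a against M-CSF, in place of 0 and 21. Leaving out 1 array gave 0 to 6 checkpoint and repair genes for nutlin-3a against FSL-1 and 6 to 12 against M-CSF, and the further damage response genes numbered 0 to 9, 4 to 11 and 12 to 16 in the order FSL-1 against M-CSF, nutlin-3a against FSL-1 and nutlin-3a against M-CSF. Over all genes the ranges were 451 to 1299, 352 to 1212 and 1158 to 1529 in that order. The cause of these shifts was not tested. A group left with 1 array was assumed to vary like the others.

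Blocking on the replicate number called 0, 5 and 13 checkpoint and repair genes and 8, 9 and 16 further damage response genes in the order FSL-1 against M-CSF, nutlin-3a against FSL-1 and nutlin-3a against M-CSF. With the M-CSF numbers crossed the block gave 0, 6 and 13, and 7, 9 and 18.

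Changes of sign were limited to small differences that were not called. Exo1 with FSL-1 against M-CSF was -0.03 after quantile normalization and after centring, in place of 0.01. After quantile normalization Palb2 with nutlin-3a against FSL-1 was 0, and Atrip and Rad50 against M-CSF were each 0.01. Without 1 array, the FSL-1 differences spanned -0.14 to 0.08 for Chek1, -0.07 to 0.01 for Atrip, -0.30 to 0.02 for Rad51ap1 and -0.18 to 0.19 for Exo1. For nutlin-3a against FSL-1 they spanned -0.04 to 0.17 for Nbn, -0.03 to 0.15 for Rad50, -0.10 to 0.11 for Palb2 and -0.19 to 0.06 for Msh6. Against M-CSF they spanned -0.06 to 0.03 for Atrip, -0.07 to 0.13 for Rad17 and -0.12 to 0.06 for Rad50.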
